A study of Mus musculus with 17 samples.

Results

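Wdfy1, the gene of a protein with WD repeats and a FYVE domain, was followed across 17 RNA sequencing libraries of mouse lumbar dorsal root ganglia (DRGs, the clusters of sensory neuron cell bodies beside the spinal cord). It is 1 gene of 23972 tested and of 78298 gene identifiers in the files. It was selected on its measured values: of all tested genes, it had the largest ratio of the variance within knockout groups to the variance within wild-type groups. Those values come from these same libraries, so its levels, its spread and its fold changes are given below as a description, with no test.

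The DRGs came from spinal levels L4 to L6 and all libraries carry the label day 30. The 4 groups were sham-operated knockout (KO, 4 libraries), sham-operated wild type (WT, 5 libraries), KO after chronic constriction injury of the sciatic nerve (CCI, 3 libraries, numbered 2 to 4) and WT after CCI (5 libraries). The knockout is of Kcnk1, which encodes the potassium channel Twik-1. The labels give the genotype only as KO or WT, and name no strain, substrain, age or sex, nor which stretch of Kcnk1 was deleted. The labels do not say that libraries came from separate animals or whether animals were pooled, so the spread between libraries may be technical in part. RNA was amplified with a SMART-Seq v4 kit, which keeps no record of strand.

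WDFY1 binds phosphatidylinositol 3-phosphate (PI3P) through its FYVE domain and sits on early endosomes. In mouse and human cells it has been reported to bring the adaptor TRIF (Ticam1) to the receptors TLR3 and TLR4, which lead to interferon and NF-κB signalling. The mouse gene is also among those whose brain transcript level is known to differ between C57BL/6J and C57BL/6N mice.

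Gene counts per library ranged from 52.5 to 73.6 M (M, mega). Levels are given as CPM, the counts of a gene for each M counts in its library after scaling. Kcnk1 itself had 77.9, 75.1, 91.8 and 114 CPM in sham KO libraries 1 to 4, against 94.3 to 139 CPM in sham WT libraries. It had 78.3, 89.0 and 84.5 CPM in CCI KO libraries 2 to 4, against 106 to 121 CPM in CCI WT libraries. Counts over all exons cannot show whether a deleted part is missing, so libraries are named here by their labels. Sham KO libraries 1 and 2 stood apart from the other sham libraries: Sprr1a, a gene of the response to axon injury, had 96.5 and 45.4 CPM there and 0.838 and 1.51 CPM in sham KO libraries 3 and 4, against 0.0183 to 0.538 CPM in sham WT libraries.

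Wdfy1 lies on mouse chromosome 1 of build GRCm39, from base 79679017 to base 79753860 on the minus strand, and is protein coding (ENSMUSG00000073643). Its start overlaps the start of Mrpl44 on the plus strand by 126 bases. A second plus-strand entry, Gm10555, of 1791 bases, lies inside Wdfy1 and had 0 to 4 counts per library. Reads from these overlaps cannot be assigned by strand, and reads that fall in 2 genes can be left out as ambiguous.

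Wdfy1 was low and uneven in the KO libraries and even in the WT libraries. The sham KO libraries 1 to 4 had 15.1, 51.4, 40.9 and 11.4 CPM (890, 2800, 2146 and 689 counts), against 77.2, 74.5, 76.0, 76.7 and 75.1 CPM in the sham WT libraries 1 to 5. All 4 sham KO values lay below all 5 sham WT values, and sham KO libraries 1 and 4 lay far below sham KO libraries 2 and 3. After injury, CCI KO libraries 2, 3 and 4 had 49.2, 80.4 and 54.9 CPM, against 79.9, 78.2, 86.1, 88.4 and 82.8 CPM in the CCI WT libraries 1 to 5. CCI KO libraries 2 and 4 lay below all WT libraries, while CCI KO library 3 lay within the CCI WT range.

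**Figure D1:**
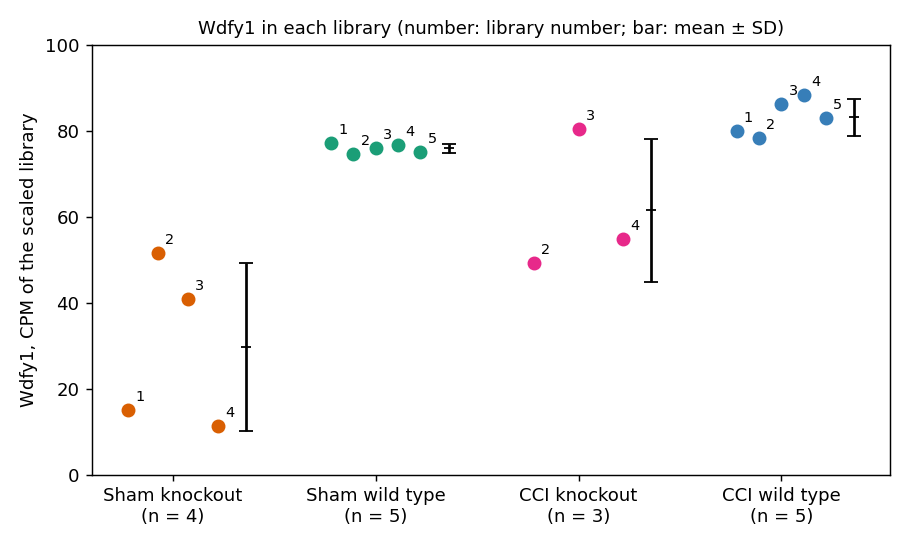
Wdfy1 level (CPM, y axis from 0) in each of 17 libraries, by group on the x axis, with points numbered by library and bars for the mean ± SD. The 4 sham knockout libraries run from 11.4 to 51.4 CPM and the 5 sham wild-type libraries from 74.5 to 77.2 CPM. The 3 CCI knockout libraries run from 49.2 to 80.4 CPM and the 5 CCI wild-type libraries from 78.2 to 88.4 CPM.

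The group means were 29.7 ± 19.5 CPM in sham KO libraries (SD, n = 4) and 75.9 ± 1.11 CPM in sham WT libraries (SD, n = 5). They were 61.5 ± 16.6 CPM in CCI KO libraries (SD, n = 3) and 83.1 ± 4.22 CPM in CCI WT libraries (SD, n = 5). As a share of the WT mean under the same treatment, sham KO libraries 1 to 4 reached 19.9, 67.8, 53.9 and 15.04%, and CCI KO libraries 2 to 4 reached 59.2, 96.8 and 66.0%. The highest KO library was thus 7.05-fold above the lowest KO library, against 1.19-fold between the highest and lowest of the 10 WT libraries.

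In order of level, sham KO library 4 and sham KO library 1 came first at 11.4 and 15.1 CPM. A 2.71-fold step led to the next 4, sham KO library 3, CCI KO library 2, sham KO library 2 and CCI KO library 4, which lay between 40.9 and 54.9 CPM. A further 1.36-fold step led to sham WT library 2 at 74.5 CPM, and the remaining libraries followed in steps of at most 1.04-fold. CCI KO library 3 was 14th of 17, between CCI WT library 1 and CCI WT library 5. The KO libraries therefore fell into a pair at the bottom, a set of 4 in the middle and 1 at the WT level. The bottom pair were sham libraries, the middle set held 2 sham and 2 CCI libraries, and the library at the WT level was a CCI library. Neighbours within the set of 4 differed by less than the SD within either KO group.

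The counting error behind each level is given as a description, since the gene was chosen for its spread between KO libraries. Exact 95% Poisson intervals, which cover counting error only, ran from 10.6 to 12.3 CPM in sham KO library 4, 14.1 to 16.1 CPM in sham KO library 1, 39.2 to 42.6 CPM in sham KO library 3 and 49.5 to 53.4 CPM in sham KO library 2. None of these 4 intervals overlapped another. The coefficient of variation was 65.8% in sham KO libraries, where counting alone would give 2.92%, and 1.47% in sham WT libraries, where counting alone would give 1.48%. It was 27.0% in CCI KO libraries, against 5.09% in CCI WT libraries, where counting alone would give 1.65 and 1.44%.

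On the log2 scale, edgeR's fit gave Wdfy1 a difference of -1.36 ± 0.35 (SE) between sham KO and sham WT and of -0.43 ± 0.38 between CCI KO and CCI WT. The mean of both genotype differences was -0.90 ± 0.26. Each SE in this paragraph rests on 1 spread of the gene shared by all 4 groups. The SD of log2 CPM was in fact 1.062 in sham KO and 0.372 in CCI KO libraries, against 0.021 in sham WT and 0.073 in CCI WT libraries. The SE of a difference between WT groups is therefore wider than the WT libraries alone would give, and that between KO groups narrower. Without sham KO library 2 the sham difference was -1.76, and without sham KO library 4 it was -1.08. The difference between CCI and sham was 1.05 ± 0.39 in KO libraries and 0.13 ± 0.32 in WT libraries. The KO value varied with the sham libraries kept, at 0.78 without sham KO library 4 and 1.46 without sham KO library 2. Without CCI KO library 3 it was 0.81, and the genotype difference in CCI was -0.67. Leaving out sham KO libraries 1 and 2 together gave -1.54 between sham KO and sham WT and 1.24 between CCI KO and sham KO. All sham KO values lay below all sham WT values for 2.08% of tested genes, and all CCI WT values lay above all sham WT values for 3.44%. Wdfy1 is among these genes in both cases, and nothing is read from the shares, since the same libraries chose the gene.

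The variance of log2 CPM about the group means was 0.732 over the KO groups and 0.00291 over the WT groups, a ratio of 252 that ranked 1 of 23972. The median ratio over all tested genes was 1.10, 90% of genes lay between 0.215 and 4.92, and the 99th percentile was 10.1. Of all genes, 1.96% had a lower variance in WT libraries than Wdfy1 and 24.3% had a higher variance in KO libraries. Just behind Wdfy1 came Speer1c at 98.9, Vgf at 45.9 and Vax2 at 45.3. Leaving out 1 library at a time gave ratios for Wdfy1 from 174.8 (without sham KO library 4) to 398.2 (without CCI WT library 4), with ranks from 1 to 9. On linear CPM the ratio was 35.6 and the rank 109, and with no low-count filter the ratio was 264.3 and the rank 3341 of 46200 genes. Without the filter, genes with very few counts enter the ranking, and a WT variance close to nil makes a ratio very large. How far this set the rank was not tested.

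**Figure D2:**
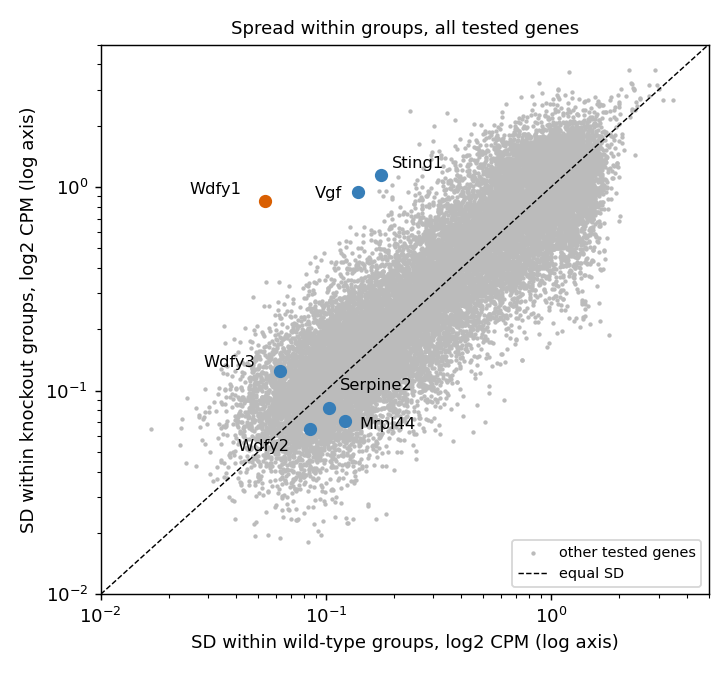
SD of log2 CPM within knockout groups (y axis, log scale) against SD within wild-type groups (x axis, log scale) for all tested genes, with equal SD as a dashed line. Wdfy1 sits at 0.856 in knockout and 0.0539 in wild-type groups, above Vgf and Sting1 in its distance from the line, while Wdfy2, Mrpl44 and Serpine2 sit below the line.

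The genes next in that ranking did not have the pattern of Wdfy1 across libraries. Vgf, which encodes a neuropeptide precursor, had 576, 643, 156 and 134 CPM in sham KO libraries 1 to 4, against 98.0 to 140 CPM in sham WT libraries. Vgf was therefore high in sham KO libraries 1 and 2, while Wdfy1 was low in sham KO libraries 1 and 4. Sting1, the innate immune adaptor downstream of cytosolic DNA sensing, had 40.01, 41.67, 5.56 and 9.87 CPM in sham KO libraries 1 to 4, against 4.61 to 5.72 CPM in sham WT libraries. Pearson's r with Wdfy1 on log2 CPM over 17 libraries was -0.28 for Vgf, -0.49 for Sting1, -0.33 for Vax2 and -0.08 for Speer1c. The split of sham KO libraries 1 and 2 from 3 and 4 that these genes share is not the split of 1 and 4 from 2 and 3 seen in Wdfy1.

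Few genes covaried closely with Wdfy1. Of 23971 other tested genes, 15 (0.0626%) had r of at least 0.8 and 2 (0.00834%) had r of at most -0.8 over the 17 libraries. The median r was -0.01, and 95% of genes lay between -0.49 and 0.58. All values of r are descriptions over libraries that share the genotype difference in Wdfy1, and they lean on sham KO libraries 1 and 4, the farthest from the median of Wdfy1. For that reason r is also given without those 2 libraries. Of the 17 genes, 15 are protein coding, 2 lie on chromosome 1 (11.8%, against 6.29% of tested genes), and 0 lie within 5 Mb of Wdfy1.

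Lpar4, a receptor for lysophosphatidic acid, was most like Wdfy1, with r = 0.90, Spearman's rho = 0.76 and r = 0.69 without the 2 farthest libraries. It had 0.915, 2.96, 1.30 and 0.563 CPM in sham KO libraries 1 to 4, against 1.66 to 2.99 CPM in sham WT libraries. It had 1.46, 2.36 and 1.96 CPM in CCI KO libraries 2 to 4, against 2.60 to 3.51 CPM in CCI WT libraries. Sham KO libraries 1 and 4 were lowest in Lpar4, as in Wdfy1, and the order of the 3 CCI KO libraries was the same, with library 3 highest. Its r was 0.84 when each library was taken as its deviation from its group mean, and 0.91 over the 7 KO libraries alone. Both settings keep sham KO libraries 1 and 4, and Lpar4 was picked by its r in these same libraries, so neither value is separate support. Over the 7 KO libraries 348 genes had r of at least 0.8. Lpar4 ranked 29 there, and 170 without the 2 farthest libraries.

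Sult5a1, a sulfotransferase, had r = 0.87, rho = 0.78 and r = 0.66 without the 2 farthest libraries. It had 0.237, 1.19, 0.781 and 0.397 CPM in sham KO libraries 1 to 4, against 0.785 to 1.67 CPM in sham WT libraries. Pea15a, a small death effector domain protein that binds ERK, had r = 0.84, rho = 0.79 and r = 0.69 without those 2. It had 715, 736, 735 and 637 CPM in sham KO libraries 1 to 4, against 752 to 842 CPM in sham WT libraries. It moved over a far smaller range than Wdfy1, 0.44 on the log2 scale between its lowest and highest libraries.

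The other protein-coding genes of at least 1 CPM among the 10 highest r were Nfxl1, Celsr1 (a cadherin of planar cell polarity), Traf5 (an adaptor of tumour necrosis factor receptors), Wtip, Zfp185, Ccdc8 and Mras (a Ras-family GTPase), at 0.80 to 0.84. Without the 2 farthest libraries, r was 0.14 for Zfp185, 0.18 for Ccdc8, 0.45 for Nfxl1, 0.52 for Celsr1, 0.56 for Traf5, 0.58 for Wtip and 0.70 for Mras. Zfp941 was just inside the limit at 0.80 and Plekhf1 just outside it at 0.795. At the negative end, Tmem161b had r = -0.81, Ica1 -0.74, Fam169a -0.74, Cmtm7 -0.72 and Efcab7 -0.72. Without the 2 farthest libraries these were -0.43, -0.63, -0.68, -0.08 and 0.01.

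The names on this list changed with the libraries used. Taken as deviations from group means, 13 genes had r of at least 0.8 and 9 had r of at most -0.8, and Lpar4 was the only gene shared with the 10 most alike over levels. Among deviations Mmadhc, a protein of cobalamin metabolism, and Gsk3b, a protein kinase, came first at 0.87 and 0.85. Over the 7 KO libraries alone 575 genes passed the same limits, and 0 of the 10 most alike were shared. Without sham KO library 4 alone, 50 genes passed and Lpar4 ranked 21.

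**Figure D3:**
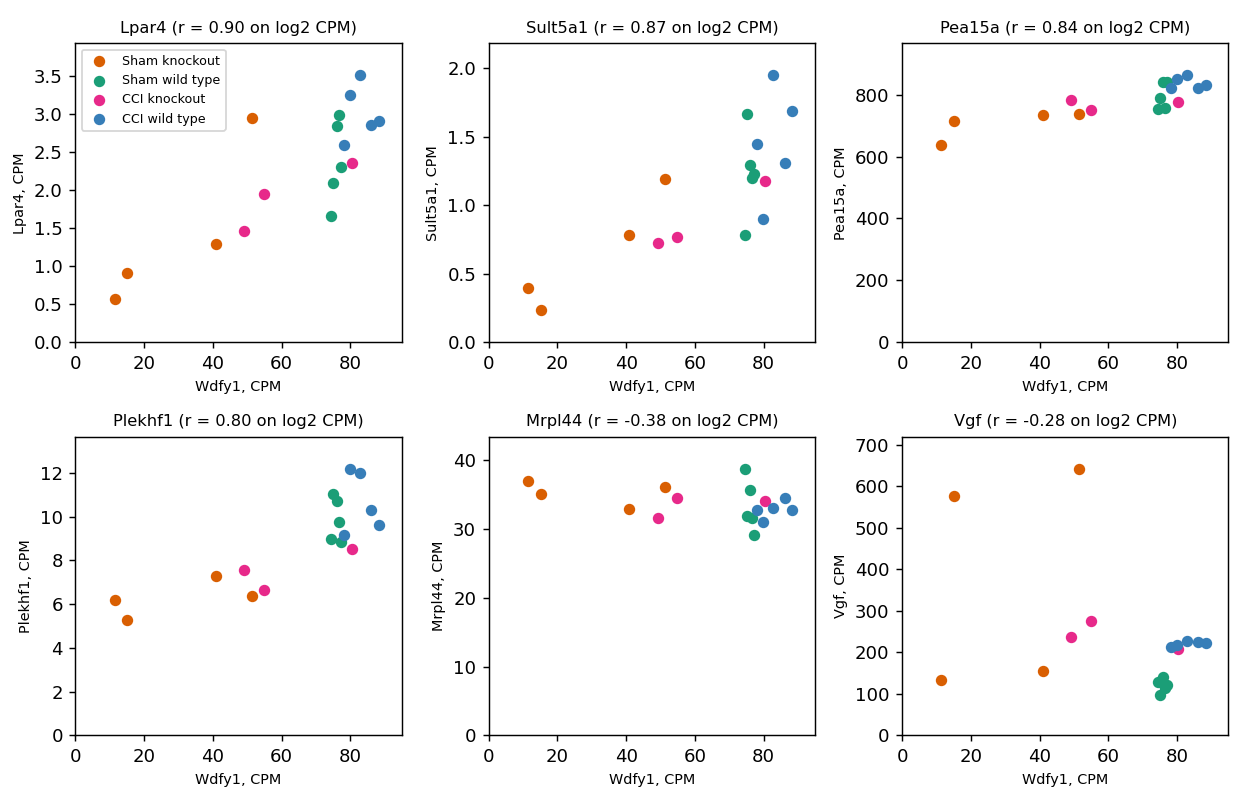
Level of 6 genes (CPM, y axes from 0) against Wdfy1 (CPM, x axes) in 17 libraries, coloured by group, with Pearson's r on log2 CPM in each title. Lpar4, Sult5a1, Pea15a and Plekhf1 are lower where Wdfy1 is low, Mrpl44 stays between 29.1 and 38.8 CPM, and Vgf is highest in sham knockout libraries 1 and 2.

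The spread of Wdfy1 did not extend to the gene that it overlaps. Mrpl44, a protein of the mitochondrial ribosome that shares the start region with Wdfy1, had 35.1, 36.1, 32.9 and 37.0 CPM in sham KO libraries 1 to 4, against 29.1 to 38.8 CPM in sham WT libraries. It had 31.7, 34.1 and 34.5 CPM in CCI KO libraries, against 31.0 to 34.5 CPM in CCI WT libraries. The groups overlapped, and Mrpl44 did not pass the test between sham KO and sham WT, at 0.08 ± 0.08 on the log2 scale (SE, edgeR adjusted p = 0.808). Its variance ratio was 0.339 and its r with Wdfy1 was -0.38.

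Serpine2, the next gene on that side and the gene of a secreted inhibitor of serine proteases, had 190, 181, 179 and 205 CPM in sham KO libraries 1 to 4, against 211 to 219 CPM in sham WT libraries. It had 245, 227 and 224 CPM in CCI KO libraries, against 232 to 306 CPM in CCI WT libraries. The sham groups did not overlap, as held for 2.08% of all genes that were lower in sham KO, and the CCI groups overlapped. Serpine2 did not pass edgeR's test in sham (adjusted p = 0.166). Its mean genotype difference was -0.18 ± 0.05 (edgeR adjusted p = 0.025), a call lost when any of 9 single libraries was left out. On the other side Scg2, a secretory granule protein, was higher in CCI KO libraries, at 543 to 605 CPM, than in CCI WT libraries, at 401 to 490 CPM, a log2 difference of 0.43 ± 0.08 (edgeR adjusted p = 0.00801). The Scg2 call was lost without CCI KO library 3 (adjusted p = 0.0913) and without CCI KO library 4 (adjusted p = 0.0513).

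Over the 78 tested genes whose lowest coordinate lay within 5 Mb of that of Wdfy1, r with Wdfy1 ran from -0.57 to 0.67 with a median of 0.02, and the median variance ratio was 1.002. Between sham KO and sham WT, 0 rose and 1 fell (Irs1, edgeR adjusted p = 0.043), where 0.259% of all tested genes rose and 0.743% fell (1% in either direction). In the CCI comparison 1 rose (Scg2) and 0 fell, where 0.184% of all genes rose and 0.501% fell (0.684%). In the mean genotype difference 1 rose (Scg2) and 2 fell (Irs1 and Serpine2), where 0.688% of all genes rose and 1.86% fell (2.55%). After injury 1 rose in KO (Cryba2), where 0.0709% of all genes rose and 0.0125% fell (0.0834%). In WT 3 rose after injury (Cryba2, Dnpep and Serpine2), where 2.34% of all genes rose and 0.713% fell (3.06%). Irs1, Cryba2 and Dnpep were named after their values were seen. Irs1, an adaptor of the insulin receptor, also had the highest r of the 78.

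**Figure D4:**
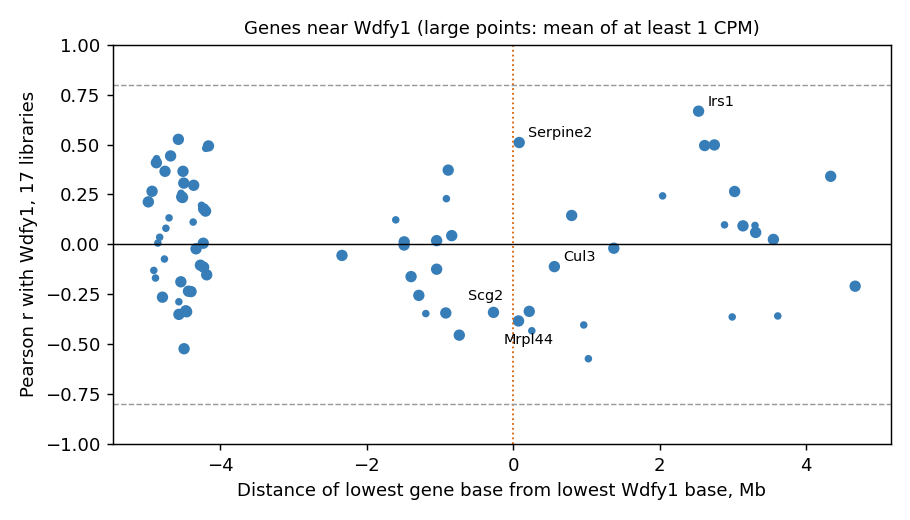
Pearson's r with Wdfy1 over 17 libraries (y axis) against the distance of each gene's lowest coordinate from that of Wdfy1 (x axis, Mb) for 78 tested genes, with larger points for genes of at least 1 CPM on average. Values run from -0.57 to 0.67 and none reaches the dashed lines at 0.8 and -0.8.

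The levels of the other WDFY genes did not closely follow those of Wdfy1 across libraries, though 2 of them also varied more in KO than in WT groups. Wdfy2, the closest relative and also a PI3P-binding protein of endosomes, had 35.2, 34.4, 35.4 and 35.1 CPM in sham KO libraries 1 to 4, against 37.3 to 43.1 CPM in sham WT libraries. The sham groups of Wdfy2 did not overlap, but the 4 sham KO libraries differed from each other by about 1 CPM. The variance ratio of Wdfy2 was 0.579. Its r with Wdfy1 was 0.529 over all libraries, the highest of the 3 other WDFY genes. That r was 0.272 without the 2 farthest libraries and -0.199 over deviations from group means. Wdfy3, a large scaffold of selective autophagy, had 146 to 174 CPM in sham KO libraries, against 149 to 162 CPM in sham WT libraries. Its r with Wdfy1 was -0.39 and its variance ratio 4.04. Wdfy4, which acts in antigen cross-presentation, averaged 1.26 CPM in sham KO libraries and 1.43 CPM in sham WT libraries. It had 0.711, 0.165, 1.31 and 2.85 CPM in sham KO libraries 1 to 4, against 0.875 to 2.32 CPM in sham WT libraries. The variance ratio of Wdfy4 was 5.46, where the median over all tested genes was 1.10, and its r with Wdfy1 was -0.12. None of these 3 genes passed edgeR's test at an adjusted p of 0.05 in any of the 5 comparisons, where 0.0834 to 3.06% of all tested genes passed.

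Of 26 PI3P kinase subunits, FYVE proteins and early endosome proteins, 1 fell between sham KO and sham WT (0.743% of all genes fell) and 25 did not pass, with a median log2 difference of -0.004 beside 0.003 over all genes. That gene was Plekhf1, a protein with a PH and a FYVE domain. Plekhf1 had 5.29, 6.37, 7.29 and 6.18 CPM in sham KO libraries 1 to 4, against 8.85 to 11.01 CPM in sham WT libraries. It had 7.54, 8.497 and 6.63 CPM in CCI KO libraries, against 9.16 to 12.2 CPM in CCI WT libraries. Neither pair of groups overlapped, as held for 2.08% of all genes that were lower in sham KO and 4.37% that were lower in CCI KO. On the log2 scale Plekhf1 fell by 0.65 ± 0.14 in sham (edgeR adjusted p = 0.0168) and by 0.57 ± 0.10 in the mean genotype difference (adjusted p = 0.00146), and differed by -0.50 in CCI (adjusted p = 0.159). The sham call was lost without sham KO library 1 (adjusted p = 0.0947), sham KO library 2 (0.0599) or sham WT library 5 (0.0623), and without sham KO libraries 1 and 2 together (0.31). Its r with Wdfy1 was 0.795 over levels, 0.78 without the 2 farthest libraries and 0.39 over deviations from group means, and its variance ratio was 1.26.

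In the mean genotype difference 1 further gene of this list rose, where 0.688% of all genes rose: Hgs, which sorts ubiquitinated cargo on endosomes, by 0.16 ± 0.04 (edgeR adjusted p = 0.0305). That call was lost without sham KO library 1 or 2, CCI KO library 2 or 4, or CCI WT library 1. In CCI, 0 of 26 passed, where 0.684% of all genes passed. In KO 0 of 26 passed after injury, where 0.0834% of all genes passed, and in WT 1 fell, where 0.713% of all genes fell. That was Eea1, an early endosome tether, which fell by 0.29 ± 0.07 (adjusted p = 0.02). The Eea1 call was lost without sham WT library 2, 4 or 5 or CCI WT library 4 or 5. The median r of the 26 genes with Wdfy1 was -0.02.

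Of 24 genes of TLR3 and TLR4 signalling through TRIF, 23 were tested, and 0 passed edgeR's test in any of the 5 comparisons. Of all tested genes, 0.0834 to 3.06% passed in a comparison, so 0 in a list this short says little about the list. Ifnb1 had 0 counts and was not tested. Tlr3 averaged 6.36 CPM in sham KO and 5.50 CPM in sham WT libraries, and 6.81 CPM in CCI KO and 6.36 CPM in CCI WT libraries. Ticam1, the gene of TRIF, averaged 5.05 CPM in sham KO and 5.26 CPM in sham WT libraries, and 6.49 CPM in CCI KO and 6.47 CPM in CCI WT libraries. Correlations with Wdfy1 ran from -0.45 (Traf3, a ubiquitin ligase of the pathway) to 0.54 (Rela, a subunit of NF-κB). Of 20 interferon-stimulated genes 0 passed in any comparison, beside the same shares of all tested genes. Their median log2 differences between KO and WT were -0.41 in sham and 0.62 in CCI, and their r with Wdfy1 ran from -0.25 to 0.17. Single genes had wide SEs: Ifit1, the first listed, differed by -0.43 ± 0.81 in sham and by 1.20 ± 0.86 in CCI. The median variance ratio of the 20 was 0.301, with more spread within WT than within KO groups, so no shift with genotype is read from these medians.

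The 11 other genes listed as known to differ between C57BL/6 substrains did not follow Wdfy1 closely, with r from -0.44 to 0.65 (Crb1, under 1.1 CPM in all libraries). Of these, 0 passed in 4 of the 5 comparisons, where 0.0834 to 3.06% of all tested genes passed. In the mean genotype difference 1 rose, where 0.688% of all genes rose. That was Cyfip2, a regulator of actin assembly, which rose by 0.26 ± 0.06 (edgeR adjusted p = 0.0251), a call lost without sham KO library 1 or CCI KO library 2 or 4. Nnt, a mitochondrial transhydrogenase, had at most 0.471 CPM in all 17 libraries, KO and WT alike. Entpd4 and Entpd4b are near-identical copies whose reads counting may split, so their values are uncertain. Whether the substrain of the mice varied with Wdfy1 was not tested.

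Markers of myelinating Schwann cells moved with genotype. Their summed level was 4576, 5361, 6496 and 6208 CPM in sham KO libraries 1 to 4, against 9935 to 14220 CPM in sham WT libraries, and 5976 to 7375 CPM in CCI KO libraries, against 10740 to 14880 CPM in CCI WT libraries. Of 8 such markers, 5 fell in sham, 4 in CCI and 7 in the mean genotype difference, where 0.743, 0.501 and 1.86% of all tested genes fell. None of the 8 was at 0 in any library. In bulk samples fewer cells of a type and less RNA per cell cannot be told apart. Each of the 8 had r between 0.57 and 0.72 with Wdfy1. Within sham KO, library 1, low in Wdfy1 at 15.1 CPM, had the lowest marker sum, and library 3 had the highest. Library 4, lowest in Wdfy1, was above library 2 in the marker sum. CCI KO library 3, at the WT level of Wdfy1, had the lowest sum of the 3 CCI KO libraries.

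Sensory neuron markers summed to 16320 to 18170 CPM in sham KO and 15070 to 17380 CPM in sham WT libraries, so the sham groups overlapped. In CCI the sums did not overlap, at 16960 to 18260 CPM in KO and 14900 to 16230 CPM in WT libraries. The median log2 difference of the 12 markers in CCI was 0.096. Of the 12, 0 passed edgeR's test in sham, in CCI or in the mean genotype difference. Of all tested genes 1, 0.684 and 2.55% passed, so 0 in a list this short says little. All 12 of these markers were detected in every library. Lymphocyte markers summed to 18.1 CPM in sham KO library 4, against 2.27 to 3.92 CPM in the other sham KO and 2.81 to 6.37 CPM in sham WT libraries, and 2 of 7 (Cd3g and Cd8a) were at 0 in some library. Red blood cell markers summed to 1752 CPM in sham KO library 4 and 110 CPM in sham KO library 1, the 2 libraries lowest in Wdfy1. Skeletal muscle markers summed to 946 CPM in sham KO library 3 and to 5.73 to 15.8 CPM in the other sham KO libraries. Satellite glia markers were at 3854 to 4709 CPM in sham KO and 4909 to 5316 CPM in sham WT libraries. They were at 4849 to 5162 CPM in CCI KO and 5759 to 6030 CPM in CCI WT libraries. The part of these cell types in the level of Wdfy1 was not tested.

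**Figure D5:**
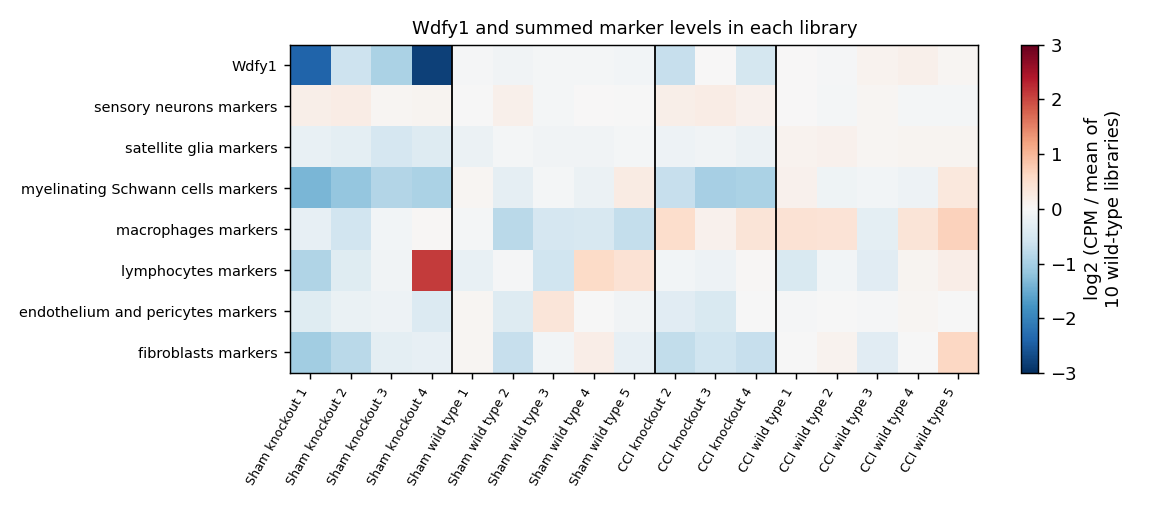
Wdfy1 and summed markers of 7 cell types (rows) in 17 libraries (columns, ordered by group), as log2 of CPM over the mean of the 10 wild-type libraries, from blue (low) to red (high). Wdfy1 is lowest in sham knockout libraries 4 and 1, Schwann cell markers are low in all 7 knockout libraries, and lymphocyte markers are high in sham knockout library 4.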

How the data were processed

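The authors deposited unnormalized read counts for each Ensembl gene, 1 table per library, ending in the summary lines of a gene counter. Per the submitters' processing notes, the authors used bcl2fastq 2.20.0.422 and STAR 2.7.11a with build GRCm39. The tables are named as HTSeq counts; the counter's version, strand mode and annotation are not stated. Summary lines were dropped (no gene 4.03 to 4.55%, ambiguous 7.63 to 8.17%). GENCODE M39 named 78168 of 78298 identifiers. Of 46200 genes with any count, 23972 passed the filterByExpr function (minimum count 10 and minimum total 15, groups given). Depth was 52.5 to 73.6 M gene counts per library.

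Counts were scaled by TMM (factors 0.983 to 1.026) and fitted in edgeR 4.0.16 (R 4.3.3) with a mean per group over 17 libraries (13 residual degrees of freedom, robust quasi-likelihood F test, Benjamini-Hochberg adjustment over all tested genes, threshold 0.05, no minimum fold). Spread and likeness used log2 CPM with a prior count of 2. The fit was tested on simulated data. Alternatives were DESeq2 1.42.0, its size factors, no low-count filter, linear CPM, Spearman's rho, the replicate block and libraries left out.

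The gene, the lists and the rules were chosen with earlier results of these data known. Named were Wdfy1, its family, Kcnk1, the substrain list, called list members (up to 4 a list), the 10 highest and 5 lowest r among protein-coding genes of at least 1 CPM in a group, the genes next in variance ratio and the flanking genes.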

Additional observations from a re-analysis of the deposited data

Results flagged for a closer look

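Of 144 groups of 4 or 5 libraries checked over the 48 named genes, 8 held a library far from the others by Dixon's test, which chance alone flags in about 1 group in 20. Wdfy1 itself was not among them. Gabra2 was at 82.47 CPM in sham KO library 1, against 70.49 to 72.36 CPM in the other sham KO libraries. Kcnk1 was at 94.29 CPM in sham WT library 3, against 127.9 to 139.3 CPM in the other sham WT libraries. Nlrp12 was at 0.1178 CPM in sham WT library 3, where the others had 0.384 to 0.4362 CPM. Acsl3, near Wdfy1 on chromosome 1, was at 91.7 CPM in sham KO library 2, against 100.6 to 101.5 CPM in the others. In CCI WT libraries Acsl3 was at 93.17 CPM in library 3, against 104.8 to 108.4 CPM in the others. Nnt was at 0.4187 CPM in CCI WT library 2, against 0.1535 to 0.23 CPM. Fam169a was at 34.65 CPM in the same library, against 29.02 to 30.62 CPM. Zfp185 was at 1.964 CPM in CCI WT library 4, against 1.308 to 1.411 CPM.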

How the results depend on the processing

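Wdfy1 kept its direction in all 5 comparisons under every setting run. Its ratio of variances was the largest or among the 9 largest when 1 library was left out (174.8 to 398.2), but 35.59 on linear CPM. With no low-count filter the ratio was 264.3 and ranked 3341 of 46200 genes, a ranking that takes in genes with very few counts. Counts of called genes moved more. With no low-count filter they were 702 (genotype in sham), 452 (genotype in CCI), 1112 (mean genotype effect), 224 (injury in knockout) and 1301 (injury in wild type). With DESeq2's own test they were 621, 405, 992, 127 and 1128 in the same order, and with its size factors in edgeR injury in knockout gave 11. Without sham KO libraries 1 and 2, genotype in sham gave 37, the mean genotype effect 404 and injury in knockout 147. Leaving out 1 library gave 88 to 665, 18 to 229, 396 to 995, 0 to 43 and 423 to 998; the 0, by edgeR, came without CCI KO library 2.

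The deviations of libraries with the same number had a mean r of 0.028 over 22 pairs, 1 of them above 0.1. Pairs with other numbers had a mean r of -0.007 over 85 pairs, 1 of them above 0.1. A mean r this small cannot decide whether the numbers pair libraries. With a replicate block the counts were 139, 91, 402 and 46, and 775 for injury in wild type. Under the block Plekhf1 (in sham and the mean) and Eea1 stayed called by edgeR, while the calls of Scg2 in CCI (adjusted p = 0.0562) and of Serpine2 (0.121), Hgs (0.0914), Cyfip2 (0.107) and Scg2 (0.0737) in the mean genotype effect were lost. These last 4 were also lost without sham KO libraries 1 and 2 (0.13, 0.223, 0.125 and 0.0688).

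Genes like Wdfy1 numbered 15 to 50 without 1 library, 34 without sham KO libraries 1 and 2, 74 with no filter and 33 by Spearman's rho. They numbered 123 after the replicate block and 575 in the 7 KO libraries alone, where so few libraries make the limits easier to pass. In 15 libraries without the 2 farthest from the Wdfy1 median, a setting added after seeing the data, genes like Wdfy1 numbered 28. There Efcab7 turned to r = 0.007. Of 23 calls of single genes, 9 were kept in all alternatives and 23 kept their direction. Why counts moved was not tested.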
